A study of Homo sapiens with 2 samples.

Results

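The genes described here serve the unfolded protein response and the disposal of misfolded proteins from the endoplasmic reticulum (ER), the process called ER-associated degradation (ERAD). They were chosen by name: 33 genes for stress sensors, foldases and ERAD factors, with heat shock and DNAJ genes and ATF4 targets left out. All 33 had a row in the deposited table. Of these, 31 had a probe set annotated to them alone, out of 18417 such genes on the array, and 2 (ATF6B and PDIA3) were covered only by probe sets shared with another gene.

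The samples were K562 cells, a chronic myeloid leukaemia line with erythroid features. Both carried an inducible hairpin (shBmi1) that doxycycline switches on to silence BMI1, which belongs to Polycomb repressive complex 1. The doxycycline culture had received the drug for 96 h, and the control culture had received none, with no incubation time given for it. Each group was 1 culture on 1 array, so no spread between replicates exists and no test between groups was possible. No culture had doxycycline without the hairpin, so hairpin induction, the drug and any other difference between the cultures cannot be told apart. The labels do not say whether the line is a single clone.

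Membrane sensors of different kinds read unfolded protein in the ER. IRE1 (gene ERN1) splices XBP1 mRNA into the form that encodes an active transcription factor. ATF6 moves to the Golgi, where the site-1 and site-2 proteases (MBTPS1 and MBTPS2) release its active fragment, and PERK slows translation and favours ATF4. XBP1 and ATF6 raise chaperones, disulfide isomerases and ERAD factors. In ERAD, EDEM proteins trim the glycans of misfolded glycoproteins, the lectins OS9 and ERLEC1 pass them to SEL1L and the ubiquitin ligase SYVN1 (HRD1), and derlins take part in drawing them into the cytosol. The array gives 1 summarised value per probe set, so XBP1 splicing and ATF6 cleavage, through which these sensors act, were not measured.

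Letters of the ER stress response element were present in the promoter windows of several members. The rule that chose the members used names and not sequence. The names were picked for roles in ER stress, so the letters are not independent of the choice. They are shown as a description of the promoters. The element called ERSE was searched as CCAAT, then 9 bases of any kind, then CCACG, and ERSE-II as ATTGG, then 1 base of any kind, then CCACG, on both strands. The windows ran from 250 bases before to 50 after each RefSeq start (GRCh38.p14), and 29 of the 33 members had 1 or more. SEC24D, PDIA3, DERL3 and DERL1 had none in the table. ERSE letters lay in windows of 6 members (CALR, CANX, CRELD2, ERO1B, PDIA6 and XBP1). They lay in 0.0769% of all 35116 windows and in windows of 0.0916% of all 27305 genes that had one. ERSE-II letters lay in windows of 3 members (HERPUD1, HYOU1 and SDF2L1), in 0.0541% of all windows and in windows of 0.0696% of those genes. A match is a run of letters and was not tested for binding. The stretches below are written 5′ to 3′ on the gene's strand, with the element in capitals. In CALR, CRELD2, ERO1B, SDF2L1 and HYOU1 it lies on the opposite strand and so reads as its reverse complement.
XBP1 (chr22:28800591-28800633, minus strand): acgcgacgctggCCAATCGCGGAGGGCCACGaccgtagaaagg
PDIA6 (chr2:10812841-10812883, minus strand): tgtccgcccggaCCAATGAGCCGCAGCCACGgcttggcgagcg
CALR (chr19:12938372-12938414, plus strand): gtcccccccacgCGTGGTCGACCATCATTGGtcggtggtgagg
CRELD2 (chr22:49918542-49918584, plus strand): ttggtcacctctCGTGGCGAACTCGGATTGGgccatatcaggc
ERO1B (chr1:236282171-236282208, minus strand): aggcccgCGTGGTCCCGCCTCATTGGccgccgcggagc
SDF2L1 (chr22:21642102-21642136, plus strand): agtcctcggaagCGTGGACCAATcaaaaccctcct
HYOU1 (chr11:119057368-119057402, minus strand): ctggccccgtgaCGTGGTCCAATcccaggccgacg

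HYOU1 had another ERSE-II match closer to the start, and the match shown overlaps the UPRE core TGACGTGG, which HYOU1 was the only member to hold. UPRE core letters were found in 0.729% of all windows and in windows of 0.927% of all genes that had one. The CRELD2 site also lies in the window of ALG12, the neighbouring gene for a mannosyltransferase of N-glycan assembly. The HERPUD1 stretch is shown because it holds letters of 2 responses. Its first capitals are the reverse complement of the amino acid response core TGATGNAA, the kind of element through which ATF4 acts, and its second capitals are ERSE-II.
HERPUD1 (chr16:56931954-56932047, plus strand): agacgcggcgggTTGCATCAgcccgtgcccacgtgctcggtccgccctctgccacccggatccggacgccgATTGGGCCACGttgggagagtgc
The amino acid response core was present in 3.62% of all windows and in windows of 4.46% of all genes that had one. Among the members it was present in windows of 2, HERPUD1 and CREB3L2. In CREB3L2 it lay after the start of a downstream transcript.

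The values are log2 RMA values, and differences are doxycycline minus control, also on the log2 scale. They compare 1 gene between 2 arrays, and levels of different genes are not compared. A floor was set by asking for a value of 6 or more in at least 1 sample, and 13471 genes passed, all 31 members with their own probe set among them. The median of all probe sets was 6.77 with doxycycline and 6.78 in the control. The silencing target was read on a probe set that BMI1 shares with a read-through transcript, which differed by -0.84, from 10.84 in the control to 10.00 with doxycycline. All 7 erythroid markers measured passed the floor, among them GATA1 at 10.16 and 10.34 and the embryonic globin gene HBE1 at 13.03 and 13.34. All 7 were lower with doxycycline, by -0.57 to -0.09, where 48.8% of all genes were lower. At least 1.2-fold lower were 4 of them (57.1%), against 4.05% of all genes. Of the 8 markers of plasma cells, which depend on XBP1, 5 passed the floor. They were SDC1 (8.07 and 8.04), CD79A (6.14 and 6.39), PRDM1 (6.13 and 6.20), POU2AF1 (6.19 and 6.18) and MZB1 (6.03 and 5.94). JCHAIN (4.69 and 4.15), TNFRSF17 (3.92 and 3.92) and IRF4 (5.90 and 5.77) were under 6 in both samples. Of 6 fibroblast markers 4 passed the floor, among them COL1A1 (7.73 and 7.84) and COL1A2 (7.91 and 7.86), and LUM and DCN were under 6. Of 5 monocyte markers 3 passed, with differences of 0.28 for LYZ, 0.20 for CSF1R and 0.01 for CD14, and FCGR3A and CD163 were under 6. The part of these markers in the results below was not tested.

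The ER stress and ERAD genes did not differ in a common direction. Of the 31 genes, 15 were higher and 16 lower with doxycycline, where 50.3% of all genes were higher. At 1.1-fold or more, 10 members (32.3%) were higher, against 19.4% of all genes, and 5 (16.1%) were lower, against 17.1%. At 1.2-fold or more, 2 members (6.45%) were higher and 1 (3.23%) was lower, against 6.04% and 4.05% of all genes. The count of 2 was 4 after centring on the sample medians, since MBTPS2 and ERO1B lie just under the size, and 1 after a trend with gene length was subtracted. At 1.5-fold, 0 members were higher and 0 lower, against 0.364% and 0.111% of all genes. The median member difference was -0.02, the mean was 0.04, and the median of all genes was 0.00177. These shares are descriptions of 2 arrays.

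**Figure D1:**
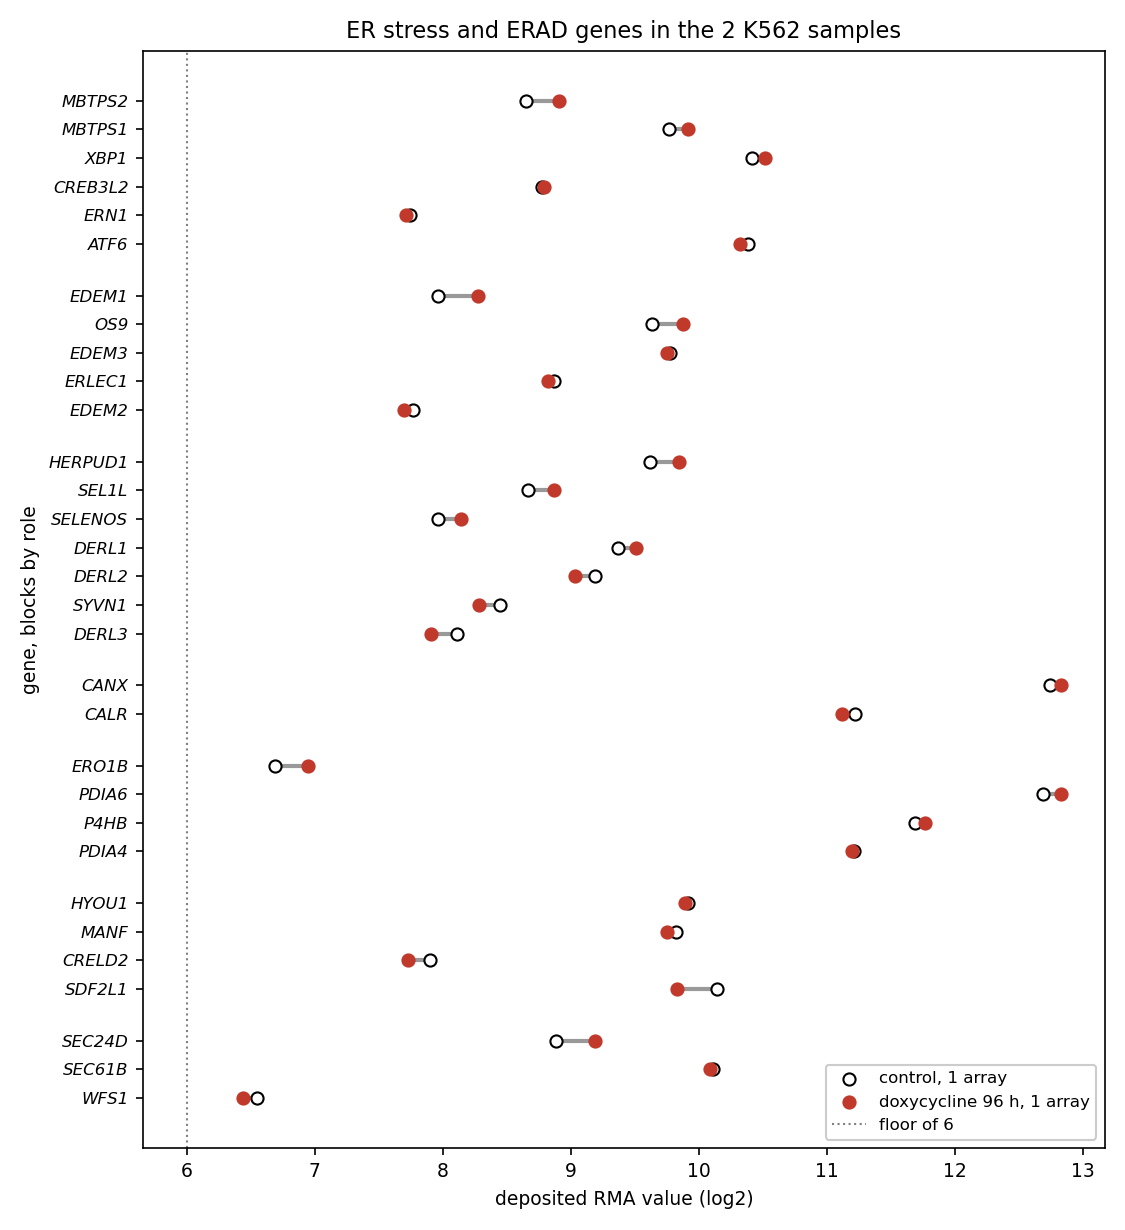
Deposited log2 RMA value of each of the 31 genes (horizontal axis) in the control sample (open points) and in the doxycycline sample (filled points), in blocks by role; each point is 1 array and the dotted line is the floor of 6. The lines joining the points are short throughout, and the longest are those of SDF2L1, EDEM1 and SEC24D.

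Across all genes at a similar level, the robust SD of the differences (scaled from the median absolute deviation) ran from 0.10 to 0.25, wider for dim genes. It describes how far genes scattered between these arrays and is not an error of replicates. Of the members, 16 differed by less than 1 such SD. The matching share of all genes was not counted. The count of 16 therefore does not show whether the members scattered less or more than other genes. EDEM1 and SEC24D were at least 2 such SDs higher and SDF2L1 was at least 2 lower, against 4.08% and 2.1% of all genes.

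Among the sensors, the transcripts of IRE1 and ATF6 were nearly level between samples, whereas those of the proteases that release ATF6 were higher with doxycycline. ERN1, the gene of IRE1, stood at 7.71 with doxycycline and 7.74 in the control, a difference of -0.04. XBP1, the transcription factor gene whose mRNA IRE1 splices, stood at 10.51 and 10.41, a difference of 0.10. Both differences were under 1 robust SD of genes at that level.

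ATF6 stood at 10.32 with doxycycline and 10.38 in the control, a difference of -0.06. Its relative ATF6B was read only on 2 probe sets shared with TNXB, at 9.60 against 9.57 and 9.59 against 9.57. MBTPS1, the site-1 protease, stood at 9.91 against 9.77, a difference of 0.15, and 17.5% of all genes differed at least as far upward. MBTPS2, the site-2 protease, stood at 8.91 against 8.65, a difference of 0.26. This lay just under 1.2-fold, and 6.28% of all genes differed at least as far upward. A further probe set shared between MBTPS2 and YY2 showed 7.27 against 7.24. CREB3L2, a membrane-bound transcription factor released by the same proteases, stood at 8.79 against 8.77. The sensor block thus held 4 higher and 2 lower genes, with a median of 0.06.

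The mannosidase-like and lectin steps of ERAD differed within each family. EDEM1 (probe set 8077458), which promotes the disposal of misfolded glycoproteins and is a classical XBP1 target, stood at 8.27 with doxycycline and 7.96 in the control. The difference of 0.31 is 1.24-fold higher, and 3.92% of all genes differed at least as far upward. EDEM2, which takes the first mannose, stood at 7.70 against 7.77 (-0.07), and EDEM3 at 9.75 against 9.77 (-0.02). So only EDEM1 of the 3 EDEM genes was higher.

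Of the lectins, OS9 stood at 9.87 with doxycycline and 9.64 in the control, a difference of 0.24. ERLEC1, which reads the same kind of trimmed glycan, stood at 8.82 against 8.87, a difference of -0.05. This block of 5 genes had 2 higher and 3 lower and a median of -0.02. With a floor of 8 the median was 0.11, because EDEM2 no longer passed.

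The retrotranslocation block split between the partners of the HRD1 complex. SEL1L, the adaptor that stabilises the ligase, stood at 8.87 with doxycycline and 8.66 in the control, a difference of 0.21. SYVN1, the ligase itself, stood at 8.28 against 8.44, a difference of -0.16. Of all genes, 10.0% differed at least as far upward as SEL1L and 13.4% at least as far downward as SYVN1. HERPUD1, a membrane protein that helps to assemble the complex, stood at 9.84 against 9.62, a difference of 0.23. SELENOS, a selenoprotein that links derlins to the extraction ATPase VCP, stood at 8.14 against 7.96, a difference of 0.18.

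The derlins, rhomboid-like proteins of the channel, did not go together. DERL1 stood at 9.50 with doxycycline and 9.37 in the control (0.14), DERL2 at 9.03 against 9.19 (-0.16), and DERL3 at 7.91 against 8.11 (-0.20). In this block 4 genes were higher and 3 lower, with a median of 0.14 and a mean of 0.03. Past 1.1-fold, 3 of these 7 genes (42.9%) were higher and 3 lower, against 19.4% and 17.1% of all genes.

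**Figure D2:**
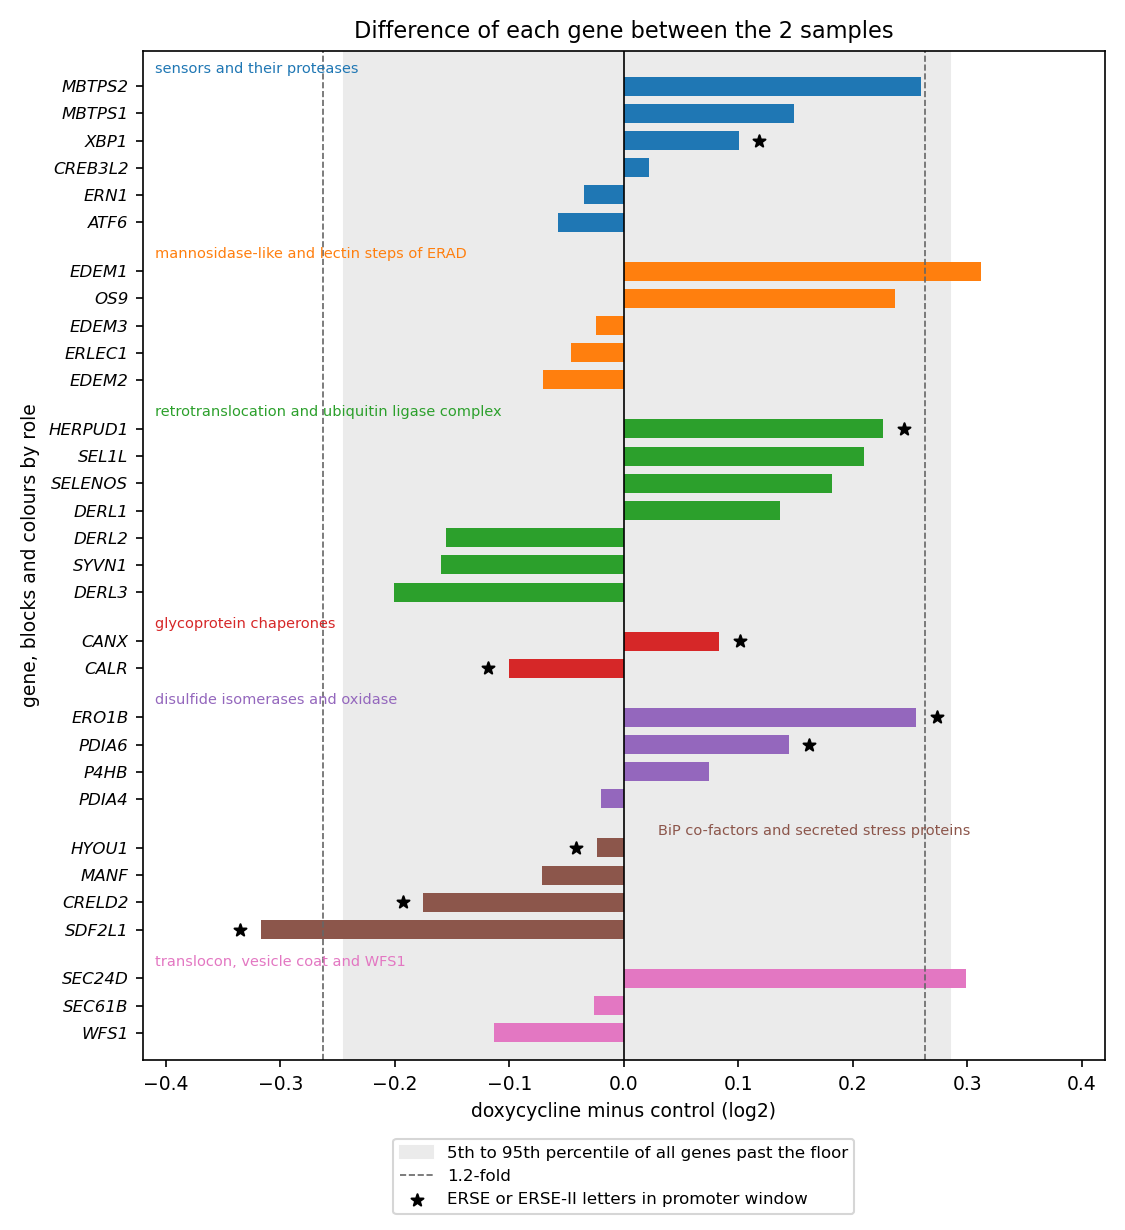
Difference of each gene, doxycycline minus control on the log2 scale (bars, 1 array per group), in blocks coloured by role; the grey band runs from the 5th to the 95th percentile of all 13471 genes (-0.24 to 0.29), dashed lines mark 1.2-fold and stars mark genes with ERSE or ERSE-II letters in a promoter window. Bars of the BiP co-factor block all point left, the other blocks hold bars on both sides, and starred genes lie on both sides of 0.

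The lectin chaperones of the glycoprotein folding cycle went apart by small amounts. CALR, the soluble calreticulin, stood at 11.12 with doxycycline and 11.22 in the control (-0.10). CANX, its membrane-bound relative calnexin, stood at 12.82 against 12.74 (0.08).

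Among the disulfide isomerases, which form and reshuffle disulfide bonds, PDIA6 stood at 12.83 with doxycycline and 12.68 in the control, a difference of 0.14. P4HB, the founding isomerase, stood at 11.76 against 11.69 (0.07), and its other probe set gave 10.46 against 10.35 (0.11). PDIA4, a frequently used ATF6 target, stood at 11.19 against 11.21 (-0.02). PDIA3, the partner of the lectin chaperones, was read only with its pseudogene PDIA3P1, at 12.40 against 12.42 and 12.32 against 12.33. ERO1B, an oxidase that recharges the isomerases, stood at 6.95 against 6.69, a difference of 0.26 in a gene near the floor. The block held 3 higher genes and 1 lower, with a median of 0.11.

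The 4 genes for co-factors of the chaperone BiP and secreted stress proteins were all lower with doxycycline, where 48.8% of all genes were lower. SDF2L1 (probe set 8071559), a BiP-associated ER protein induced by stress, stood at 9.82 with doxycycline and 10.14 in the control. The difference of -0.32 is 1.25-fold lower, and 2.06% of all genes differed at least as far downward. CRELD2, a stress-induced ER protein that can be secreted, stood at 7.73 against 7.90, a difference of -0.18. MANF, a secreted factor that binds BiP, stood at 9.75 against 9.82 (-0.07). HYOU1, the nucleotide exchange factor of BiP, stood at 9.89 against 9.91 (-0.02). The median of these 4 genes was -0.12, and 2 of them (50%) were at least 1.1-fold lower, against 17.1% of all genes. MANF and HYOU1 differed by less than 1 robust SD of genes at that level. The 4 genes have short genomic spans, from 1.998 kb (SDF2L1) to 13.018 kb (HYOU1), and 7 of the 10 shortest members were lower. After a trend with gene length was subtracted, all 4 were still lower, with a median of -0.097. The part of gene length in this block was not otherwise tested. HSPA5, the gene of BiP, which is no member, stood at 11.93 against 11.99 (-0.06).

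Of the remaining members, SEC24D (probe set 8102482), a cargo adaptor of the COPII vesicle coat, was higher with doxycycline. It stood at 9.18 with doxycycline and 8.89 in the control. The difference of 0.30 is 1.23-fold higher, and 4.42% of all genes differed at least as far upward. SEC61B, a subunit of the translocon, stood at 10.09 against 10.11 (-0.03). WFS1, the ER membrane protein altered in Wolfram syndrome, stood at 6.44 against 6.55 (-0.11), near the floor, and its removal by a floor of 7 moved the median of these 3 genes from -0.03 to 0.14.

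The members were also read by the factor that textbook accounts place upstream. Of 6 genes assigned to IRE1 and XBP1 (EDEM1, EDEM2, DERL1, DERL2, SEC61B and SEC24D), 3 were higher and 3 lower, with a median of 0.06. Of 6 genes assigned to ATF6 (HERPUD1, CALR, PDIA4, SEL1L, CRELD2 and HYOU1), 2 were higher and 4 lower, with a median of -0.02. Of 5 genes assigned to both factors (SYVN1, DERL3, SDF2L1, MANF and PDIA6), 1 was higher and 4 lower, with a median of -0.16. In this last group 3 of 5 (60.0%) were at least 1.1-fold lower, against 17.1% of all genes. The 4 lower genes have genomic spans of 1.998 to 7.24 kb, and PDIA6, the higher one, spans 54.3 kb. After a trend with gene length was subtracted, SYVN1 was at -0.13, just under 1.1-fold. The 2 members past 1.2-fold upward were both assigned to XBP1, and the member past 1.2-fold downward to both factors. These are 6.45% and 3.23% of the members, against 6.04% and 4.05% of all genes. MBTPS2 and ERO1B, which were not assigned, lay just under 1.2-fold at 0.26 each. SEC24D was at 0.26, also just under, after a trend with gene length was subtracted. Membership of this group thus depended on the cut-off. Targets overlap between the factors, so the assignment is approximate, and the differences between branches were not tested.

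Promoter letters did not sort the members by direction either. Of the 9 with ERSE or ERSE-II, 5 were higher (ERO1B, HERPUD1, PDIA6, XBP1 and CANX) and 4 lower (SDF2L1, CRELD2, CALR and HYOU1), with a median of 0.08. Of the 19 measured members whose windows held neither, 8 were higher and 11 lower, with a median of -0.02. Thus 2 of the 3 members with ERSE-II, HERPUD1 at 0.23 and SDF2L1 at -0.32, differed in opposite directions. ALG12, which shares its site with CRELD2, stood at 7.94 against 7.91 (0.03). Over all 30 genes past the floor with either element, 16 were higher and 14 lower, with a median of 0.03. These included the ER chaperone genes HSPA5 (-0.06) and HSP90B1 (-0.02), the AMPylation enzyme gene FICD (0.18) and SERP1, a translocon-associated stress gene (-0.05).

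The other genes of the secretory pathway were described through lists of their own, and most lay close to 0. Of 26 genes for the ubiquitin and extraction steps of ERAD, 13 were higher and 13 lower, with a median of -0.00336. Past 1.2-fold, 0 were higher and 0 lower, against 6.04% and 4.05% of all genes. VCP, the extraction ATPase, stood at 11.78 with doxycycline and 11.81 in the control. The furthest from 0 were YOD1, a deubiquitinase (-0.26), RNF185, a ubiquitin ligase (0.21), UBXN4, a VCP adaptor (0.18), and FAM8A1, an HRD1 partner (0.16). Of 22 genes for the translocon and signal peptide processing, 11 were higher and 11 lower, with a median of 0.00116. SPCS1 (-0.16), SRP54 (0.16), SSR4 (-0.15) and SSR2 (0.13) were furthest from 0.

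In the N-glycan list more genes were higher, by small amounts. Of its 21 genes, 18 were higher (85.7%, against 50.3% of all genes) and 3 lower, with a median of 0.04 and a range of -0.02 to 0.20. MAGT1, an oligosaccharyltransferase subunit, differed by 0.20, and the cargo lectins LMAN1 and LMAN2 by 0.15 and 0.14. MAN1A2, a Golgi mannosidase, differed by 0.12. At least 1.1-fold higher were 3 genes (14.3%), against 19.4% of all genes.

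Of 28 other isomerases and foldases, 20 were higher (71.4%, against 50.3% of all genes) and 8 lower, with a median of 0.07. Past 1.2-fold, 2 genes (7.14%) were higher and 1 (3.57%) lower, against 6.04% and 4.05% of all genes. TXNDC12, a small thioredoxin-like ER protein, stood at 11.13 with doxycycline and 10.80 in the control (0.33). FKBP9, a prolyl isomerase, stood at 7.49 against 7.17 (0.31), PDIA2 at 6.30 against 6.59 (-0.29) and the peroxiredoxin PRDX4 at 9.14 against 9.37 (-0.22). Relatives of 3 members, named after their values were seen, were higher or nearly level. CRELD1 was 0.21 higher where CRELD2 was at -0.18, SDF2 was at 0.00317 where SDF2L1 was at -0.32, and ERO1A was at 0.10 where ERO1B was at 0.26.

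Of 17 genes for the COPII coat and ER exit, 11 were higher (64.7%, against 50.3% of all genes) and 6 lower, with a median of 0.04. Past 1.2-fold, 2 genes (11.8%) were higher and 0 lower, against 6.04% and 4.05% of all genes. KDELR3, a receptor that returns escaped ER proteins, stood at 8.78 with doxycycline and 8.35 in the control (0.43). SEC23A, a coat partner of SEC24 proteins, stood at 9.73 against 9.45 (0.27). SEC31B, an outer coat gene, differed by 0.22 and SAR1B, a coat GTPase, by -0.16. SEC24A (-0.07), SEC24B (0.08) and SEC24C (0.01) were nearer to 0 than SEC24D.

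Of 17 CREB3 family and other regulator genes, 9 were higher and 8 lower, with a median of 0.02. ERN2, the epithelial relative of IRE1, stood at 5.65 with doxycycline and 6.04 in the control, so it passed the floor only through the control. CREB3L4 differed by 0.25, CREB3L3 by 0.14 and RTCB, the ligase that joins XBP1 exons, by 0.12.

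**Figure D3:**
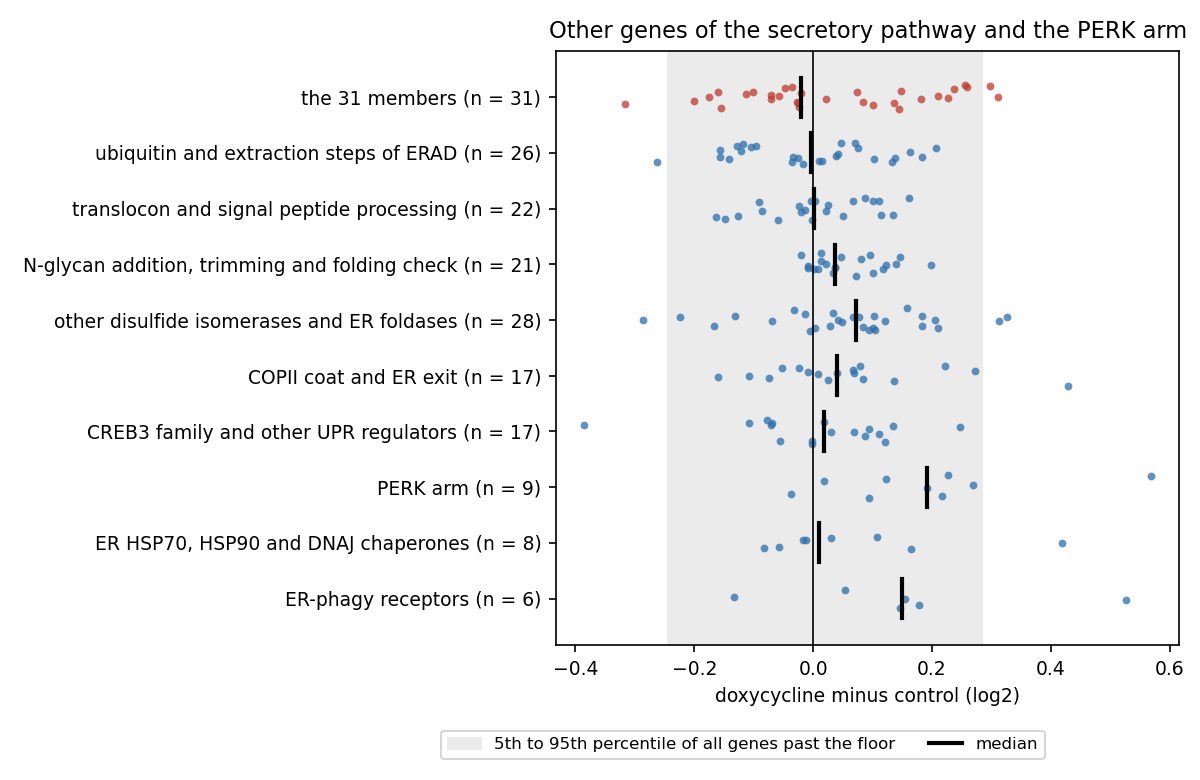
Difference of each gene, doxycycline minus control on the log2 scale (points, 1 array per group), for the 31 members and for 9 other lists of the secretory pathway and the PERK arm; black bars are list medians and the grey band is that of all genes, as above. The medians lie between -0.02 and 0.07 except in the PERK arm (0.19) and the ER-phagy receptors (0.15).

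Most genes of the PERK arm were higher with doxycycline. Of its 9 genes, 8 were higher and 1 lower, with a median of 0.19, where 50.3% of all genes were higher. At least 1.1-fold higher were 5 (55.6%), against 19.4% of all genes. At least 1.2-fold higher were 2 (22.2%), against 6.04%. The counts of 8 and 5 include ATF4 on the probe set used. DDIT3 (CHOP), a transcription factor of prolonged stress, stood at 8.51 with doxycycline and 7.94 in the control (0.57). TRIB3, a pseudokinase induced by ATF4 and CHOP, stood at 8.79 against 8.52 (0.27). ATF4 stood at 11.19 against 10.97 (0.23) on the probe set used, but at 8.83 against 8.92 (-0.09) on its other probe set, so its direction was not settled. CHAC1, a glutathione-degrading enzyme, differed by 0.22, PPP1R15A, the stress-induced phosphatase subunit, by 0.09 and EIF2AK3, the gene of PERK, by 0.12. ATF4 is also used by amino acid and other stresses, so these genes do not belong to ER stress alone. Of the 2 members with letters of the amino acid response core, HERPUD1 was at 0.23 and CREB3L2 at 0.02.

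Of the 8 ER chaperones of the HSP70, HSP90 and DNAJ families, 4 were higher and 4 lower, with a median of 0.00947. HSPA13, an ER-associated HSP70 relative, stood at 9.66 with doxycycline and 9.24 in the control (0.42). DNAJC10, a disulfide reductase of ERAD, differed by 0.17, DNAJB9, a classical XBP1 target, by 0.11, DNAJB11 by -0.08 and DNAJC3 by -0.01. Of 6 ER-phagy receptor genes, 5 were higher (83.3%, against 50.3% of all genes) and 1 lower, with a median of 0.15. CALCOCO1 stood at 8.26 against 7.73 (0.53), RETREG2 at 8.12 against 7.94 (0.18), and TEX264 and RETREG3 differed by 0.15 each. The lower gene, ATL3, was at -0.13 on the probe set used and at 0.17 on its other one.

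The direction of the members moved with gene length. Over the 31 members, Spearman's rho between genomic span (RefSeq, GRCh38.p14) and the difference was 0.45, given as a description because the genes share the same 2 arrays. Over the 13459 genes with a span it was 0.18. The 15 higher members had a median span of 45.8 kb and the 16 lower members 14.3 kb, against 29.9 kb and 18.4 kb for higher and lower genes overall. Of the 10 shortest members, 3 were higher and 7 lower, and of the 10 longest, 7 were higher and 3 lower. SDF2L1, at 1.998 kb, was the shortest member. After a trend with span was subtracted, SDF2L1 was at -0.28, EDEM1 at 0.30 and SEC24D at 0.26, which left SEC24D just under 1.2-fold. How far span accounts for the differences was not otherwise tested.

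**Figure D4:**
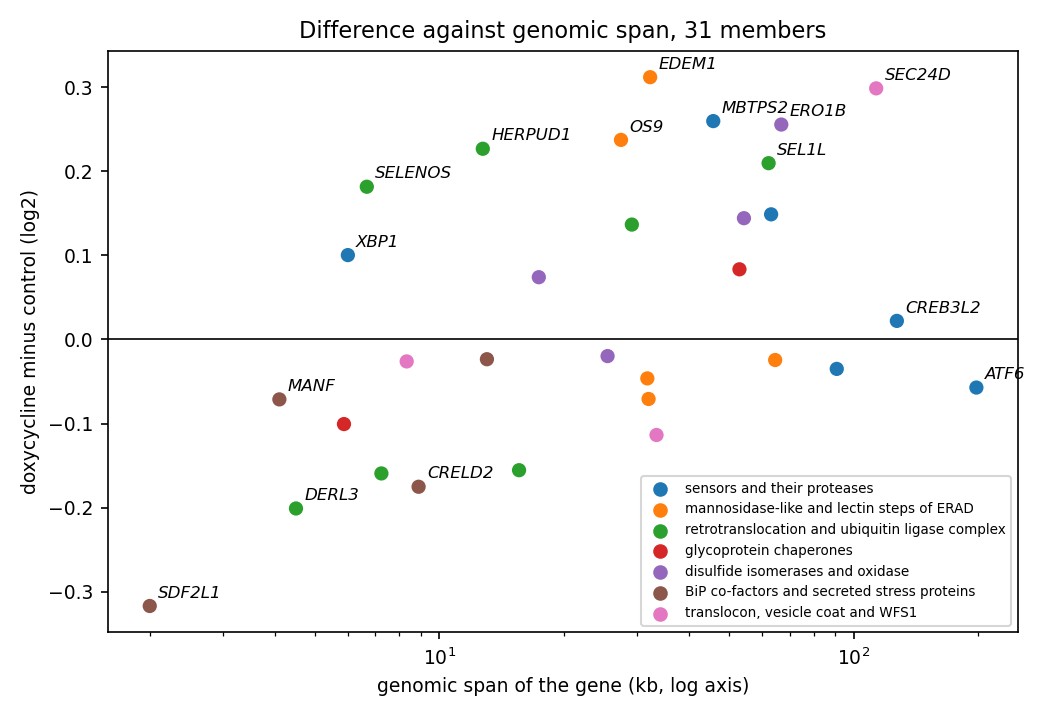
Difference of each of the 31 genes, doxycycline minus control on the log2 scale, against its genomic span in kb on a log axis; each point is 1 gene, coloured by role. Short genes such as SDF2L1, DERL3 and CRELD2 lie below 0 and long ones such as SEC24D and ERO1B above, while XBP1 and SELENOS are short and higher and ATF6 is long and slightly lower.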

How the data were processed

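Each culture gave total RNA for 1 Affymetrix array, labelled with biotin as whole-transcript sense target, per the labels' protocols. The series text names another array type, but the probe set numbers are those of the Gene ST annotation used here. Per the submitters' processing notes, the authors ran RMA in Expression Console 1.1.1 of Affymetrix, which gave the deposited log2 values. RMA subtracts background, quantile-normalizes and summarises probes, so any global shift between the arrays is lost. No label states the base 2, which follows from RMA and the range of 1.61 to 14.6. The number of arrays limits the precision.

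Of 33297 probe sets, 19460 had 1 symbol, 1754 several and 12083 none here. Symbols were updated by Entrez ID to RefSeq, where 19429 matched. A gene took its probe set with the highest mean, and genes with both values under 6 were left out. The robust SD was taken in 20 bins of mean level. With 1 sample per group no p-value was computed. The steps were tested on simulated data. All 33 members are named, and of each other list up to 4 genes furthest from 0, besides fixed PERK-arm and chaperone genes; relatives of members, VCP and genes with ERSE letters were named after their values were seen. The members and lists were chosen with earlier results of these data known. Alternatives were other probe set rules, centring, loess and quantile normalization, other floors, omission of the most extreme member and, added after seeing the data, subtraction of a trend with span. A planned description of protein C-termini was not made here. Promoters were credited to RefSeq on GRCh38.p14. Software was numpy 2.4.6, pandas 2.3.3, statsmodels 0.14.6 and matplotlib 3.10.9 under Python 3.11.15.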

Additional observations from a re-analysis of the deposited data

How the results depend on the processing

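No paired analysis was possible because each group held 1 sample, and for the same reason no replicate could be left out. Of 380 alternative values, 375 stayed within the limits set (a robust SD among genes for differences, 0.10 for medians, 1.5 times for counts), 5 moved and 0 changed sign from a difference of at least 1.2-fold. The number of members at least 1.2-fold higher was 2 as reported, 4 after centring on the sample medians, when MBTPS2 and ERO1B passed, and 1 after subtraction of the span trend. The median of the mannosidase-like and lectin block moved to 0.11 with a floor of 8, and that of SEC61B, SEC24D and WFS1 to 0.14 with floors of 7 and 8, in each case because fewer genes passed. The median of the members ran from -0.02 to 0.05 over 11 alternatives and so has no settled sign. All 31 members kept their sign under centring, the loess trend on level and both probe set rules; PDIA4 changed sign under quantile normalization (0.00017) and CREB3L2 after the span trend (-0.02). The BMI1 difference ran from -0.84 to -0.83. Scalings moved the median of all genes by no more than 0.01. Values near the floor, as for WFS1 and ERO1B, are the least sure.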
